A study of Ovis aries with 15 samples.

Results

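The distal convoluted tubule is the short segment of the nephron that lies between the thick ascending limb and the connecting tubule. This report covers 8 genes of that segment and of its salt-regulating kinase pathway in sheep kidney: SLC12A3, TRPM6, PVALB, KLHL3, WNK1, WNK4, STK39 and CNNM2. They were chosen by gene symbol, and all 8 were found among the 25592 genes of the expression table. The libraries were labelled as kidney and, except for a liver-like library described below, had a kidney profile. They came from male Dorper × Small-tailed Han sheep aged 4 months that ate a total mixed ration for 21 days, with 6 sheep per group in the study and 5 libraries per group. The CON group ate the ration alone, and the AFB1 group ate it with aflatoxin B1, a mould toxin, at 500 µg per kg of dry matter. In the AFB1_CUR group the ration held that amount of AFB1 together with curcumin, at 800 mg per kg of dry matter. Every group therefore shared breed, age, ration and length of feeding, and there was no group with curcumin alone. The RNA came from whole pieces of kidney, and the region of the kidney that was sampled for RNA was not stated.

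In the distal convoluted tubule, the sodium chloride cotransporter NCC, encoded by SLC12A3 and blocked by thiazide diuretics, takes up sodium and chloride from the tubular fluid. The WNK kinases, such as WNK1 and WNK4, phosphorylate the kinases SPAK (STK39) and OSR1 (OXSR1), which in turn phosphorylate NCC and raise its activity. KLHL3 is the adaptor by which the CUL3 ubiquitin ligase marks WNK kinases for degradation, and inherited defects of WNK1, WNK4, KLHL3 or CUL3 cause a familial form of high blood pressure with high potassium. The same segment takes up magnesium through the channel TRPM6, CNNM2 is needed for magnesium balance, and PVALB encodes parvalbumin, a calcium-binding protein of early distal convoluted tubule cells and of fast skeletal muscle. Since most of this pathway acts by phosphorylation and degradation of proteins, the RNA levels given here do not measure its activity.

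Gene positions were those of the expression table, in which 99.6% of the genes with a RefSeq symbol had the same start and end as in the RefSeq annotation of the sheep assembly ARS-UI_Ramb_v3.0. SLC12A3 lay on chromosome 14 from 24501124 to 24549453, TRPM6 on chromosome 2 from 61864561 to 62030912, and PVALB on chromosome 3 from 180817081 to 180836364. KLHL3 lay on chromosome 5 from 46703698 to 46834182, WNK1 on chromosome 3 from 213414650 to 213543433, and WNK4 on chromosome 11 from 42545676 to 42560718. STK39 lay on chromosome 2 from 141120308 to 141437789 and CNNM2 on chromosome 22 from 23249705 to 23423705. Each value below is for the whole gene and covers its exons together. WNK1 overlapped the opposite-strand gene RAD52 over 286 bp, WNK4 overlapped LOC132657424 over 147 bp, and CNNM2 overlapped LOC121817599 over 1844 bp. Whether the counting used strand was not stated, so reads in those stretches could belong to either partner. STK39 overlapped LOC121818807 over 399 bp on the same strand, a gene with a median count of 0.

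The library labelled AFB1 replicate 1 stood apart from the other 14 and is shown separately throughout. The total counts ranged from 50255295 to 68747047 per library. In AFB1 replicate 1, 16 measured hepatocyte marker genes summed to 57280 FPKM (fragments mapped per kilobase of gene length, scaled to the mapped total of the library), against 97.2 to 447 in the other libraries, and 9 proximal tubule markers summed to 36.6 FPKM, against 1598 to 4106. This library went against its label as kidney, and each of the 8 genes was lower there than in every other library. SLC12A3 had 22 counts there, an FPKM of 0.042, and its median FPKM in the other 14 libraries was 1550-fold higher. PVALB had 0 counts there, and its median level in the others was at least 16.9-fold higher when 3 counts were taken as the limit that a count of 0 allows, for counting error only. The median of the 14 was 134-fold higher for WNK4 (75 counts in AFB1 replicate 1), 29.8-fold higher for KLHL3 (176 counts), 6.96-fold higher for CNNM2 (463 counts), 6.76-fold higher for STK39 (212 counts), 4.26-fold higher for WNK1 (9543 counts) and 3.26-fold higher for TRPM6 (60 counts). Thus WNK1, a kinase made in many tissues, kept an FPKM of 14.2 in that library, whereas the cotransporter was nearly absent. Unless all 15 libraries are named, the comparisons used 14 libraries, with 4 in the AFB1 group.

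**Figure D1:**
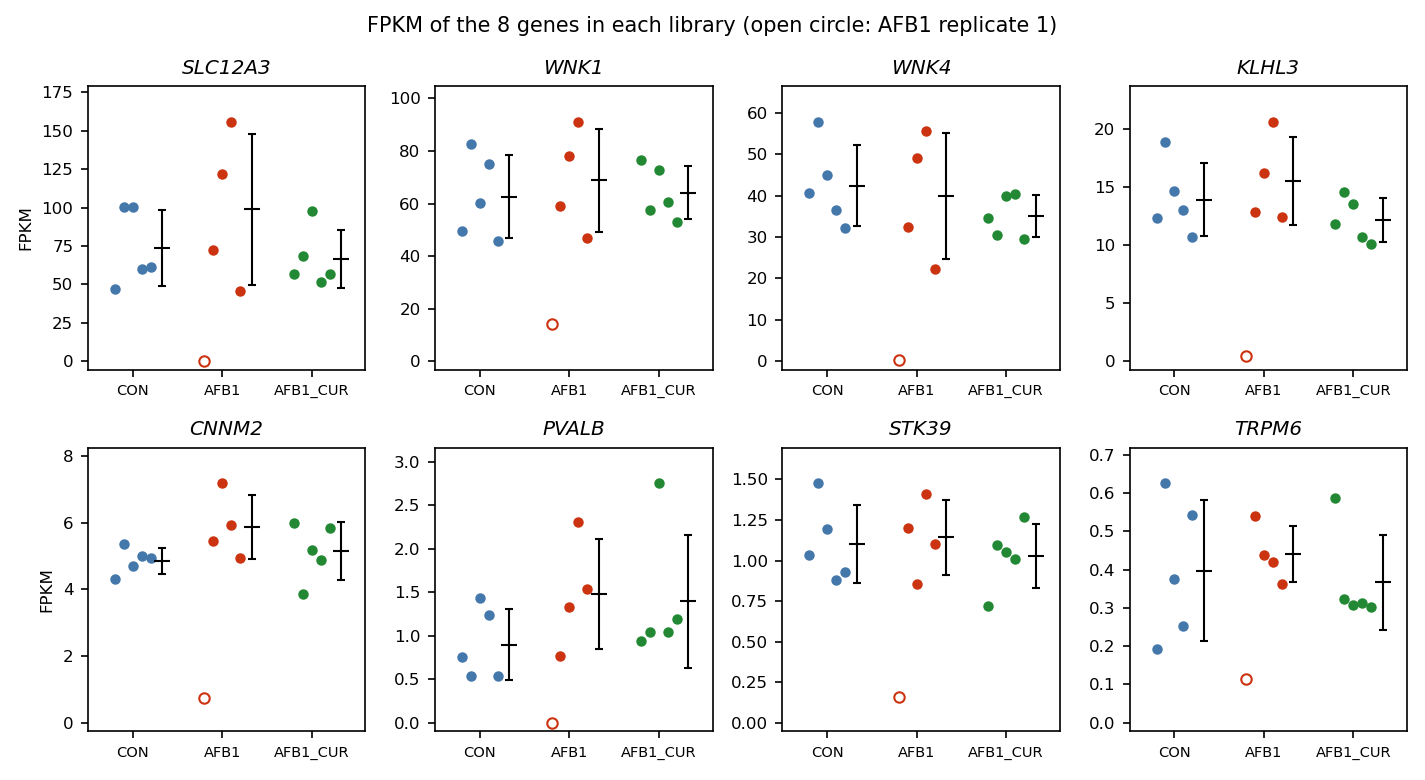
FPKM of each of the 8 genes (1 panel per gene, linear axes starting at 0) in the CON, AFB1 and AFB1_CUR groups; each filled point is a library, the black bar and whiskers are the mean ± SD of the filled points (n = 5, 4 and 5), and the open circle is AFB1 replicate 1. The open circle lies below every filled point in all 8 panels, and the filled points of the 3 groups overlap in each panel.

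SLC12A3, the cotransporter itself, had the highest median FPKM of the 8 genes. Its FPKM values were 47.3, 100.2, 100.5, 59.9 and 61.4 in CON, 72.2, 121.8, 155.8 and 46.0 in AFB1 replicates 2 to 5, and 57.0, 68.5, 98.1, 51.7 and 57.0 in AFB1_CUR. The lowest and the highest of the 14 values both came from the AFB1 group, which spanned 3.39-fold, and the groups overlapped. The mean was 73.9 ± 24.8 FPKM in CON (SD, n = 5), 98.9 ± 49.2 in AFB1 (SD, n = 4) and 66.5 ± 18.7 in AFB1_CUR (SD, n = 5). The coefficient of variation over the 14 libraries was 41.3%, and the counting error at the median count was 0.547%.

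WNK1 had FPKM values of 49.7, 82.7, 60.2, 75.0 and 45.8 in CON, 59.3, 78.2, 91.1 and 46.9 in AFB1 replicates 2 to 5, and 76.5, 57.5, 72.9, 60.6 and 53.1 in AFB1_CUR. The group means were 62.7 ± 15.9, 68.9 ± 19.6 and 64.1 ± 10.1 FPKM (SD, n = 5, 4 and 5), so the means differed by less than the SD of any group. The table holds 1 value for the gene, so the full-length kinase and the kidney-specific short form of WNK1, which lacks the kinase domain, were not told apart.

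WNK4, the WNK kinase whose mutations alter NCC in the distal nephron, had FPKM values of 40.6, 57.8, 44.9, 36.5 and 32.2 in CON. The values were 32.4, 49.0, 55.7 and 22.3 in AFB1 replicates 2 to 5 and 34.6, 30.6, 39.9, 40.4 and 29.5 in AFB1_CUR. AFB1 replicate 5 was the lowest and CON replicate 2 the highest, and the AFB1_CUR libraries all lay within the range of the AFB1 group, with replicates 2 and 5 below every CON library. The means were 42.4 ± 9.83, 39.9 ± 15.3 and 35.0 ± 5.10 FPKM (SD, n = 5, 4 and 5). WNK1 exceeded WNK4 in FPKM in each of the 14 libraries, by a median of 1.72-fold and a range of 1.22 to 2.21. In counts the median ratio was 4.45-fold.

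KLHL3, the adaptor for WNK degradation, had FPKM values of 12.3, 18.9, 14.6, 13.0 and 10.7 in CON, 12.8, 16.2, 20.6 and 12.4 in AFB1 replicates 2 to 5, and 11.8, 14.6, 13.5, 10.7 and 10.1 in AFB1_CUR. AFB1 replicate 4 was the highest library for KLHL3, as it was for SLC12A3 and WNK1. The means were 13.9 ± 3.11, 15.5 ± 3.78 and 12.1 ± 1.88 FPKM (SD, n = 5, 4 and 5).

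STK39, which encodes SPAK, was low per length. The FPKM values were 1.03, 1.48, 1.20, 0.880 and 0.926 in CON, 1.20, 0.855, 1.41 and 1.10 in AFB1 replicates 2 to 5, and 0.721, 1.10, 1.05, 1.01 and 1.27 in AFB1_CUR, and the groups overlapped. The means were 1.10 ± 0.241, 1.14 ± 0.230 and 1.03 ± 0.199 FPKM (SD, n = 5, 4 and 5). Another kinase of the pathway, OSR1 (OXSR1), named here after its values were seen, exceeded STK39 by a median of 9.18-fold in FPKM (6.49 to 14.1, in 14 of 14 libraries) and by a median of 2.11-fold in counts. The gap between the FPKM and count ratios lay in the lengths used: the count and FPKM of STK39 together implied a length of 23.9 kb, against 5.49 kb for OXSR1. The level of STK39 per length thus depends on that implied length, which was not checked against a gene model.

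TRPM6, the magnesium channel, was the lowest of the 8 genes in FPKM, with 121 to 368 counts. Its FPKM values were 0.194, 0.625, 0.375, 0.252 and 0.541 in CON, 0.540, 0.439, 0.419 and 0.363 in AFB1 replicates 2 to 5, and 0.588, 0.322, 0.306, 0.313 and 0.303 in AFB1_CUR. AFB1_CUR replicate 1 stood above the other 4 libraries of its group, and the CON libraries covered the whole range. The means were 0.397 ± 0.184, 0.440 ± 0.0737 and 0.366 ± 0.124 FPKM (SD, n = 5, 4 and 5). TRPM6 reached an FPKM of 1 in 0 of the 14 libraries and so did not pass the filter on low values, which needed 4. Its relative TRPM7, a channel kinase made in most cells and also named after its values were seen, exceeded it by a median of 13.8-fold in FPKM (9.45 to 20.5).

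CNNM2, the membrane protein gene of magnesium balance, was the steadiest of the 8, with a coefficient of variation of 15.5% over the 14 libraries. Its FPKM values were 4.30, 5.35, 4.69, 5.01 and 4.94 in CON, 5.44, 7.17, 5.92 and 4.93 in AFB1 replicates 2 to 5, and 5.99, 3.85, 5.17, 4.89 and 5.84 in AFB1_CUR. AFB1 replicates 2, 3 and 4 lay above every CON library, and AFB1 replicate 5 lay among them. The means were 4.86 ± 0.391, 5.87 ± 0.961 and 5.15 ± 0.857 FPKM (SD, n = 5, 4 and 5).

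PVALB, the marker of the early segment in rodents, had the fewest counts of the 8 genes. It had FPKM values of 0.753, 0.536, 1.43, 1.23 and 0.542 in CON, 0.773, 1.33, 2.30 and 1.54 in AFB1 replicates 2 to 5, and 0.938, 1.05, 2.75, 1.05 and 1.19 in AFB1_CUR. AFB1_CUR replicate 3 and AFB1 replicate 4 were the highest, and the groups overlapped. The means were 0.899 ± 0.411, 1.49 ± 0.633 and 1.40 ± 0.764 FPKM (SD, n = 5, 4 and 5). Its values rested on 25 to 124 counts per library with a median of 50.5, and counting error at the median was 14.1%, the highest of the 8 genes. Because muscle also makes parvalbumin, 8 measured skeletal muscle genes were summed, and they came to 0.413 to 2.88 FPKM in the 14 libraries, with 1.24 to 2.79 in CON, 0.631 to 1.81 in AFB1 and 0.413 to 2.88 in AFB1_CUR.

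Ordered by their median FPKM over the 14 libraries, the levels were 64.9 for SLC12A3, 60.4 for WNK1, 38.2 for WNK4, 12.9 for KLHL3, 5.09 for CNNM2, 1.12 for PVALB, 1.07 for STK39 and 0.369 for TRPM6. SLC12A3 and WNK1 were not separated in FPKM, since SLC12A3 was the higher in 9 of 14 libraries. PVALB and STK39 were not separated in FPKM either (8 of 14). WNK1 was above WNK4 in each library, although their ranges overlapped. The 4 other steps of the order, from WNK4 to KLHL3, KLHL3 to CNNM2, CNNM2 to PVALB and STK39 to TRPM6, had ranges without overlap. The remaining WNK kinases, WNK2 and WNK3, named after their values were seen, had median levels of 0.260 and 0.159 FPKM, with ranges that overlapped that of TRPM6 and lay below those of the other 7 members.

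**Figure D2:**
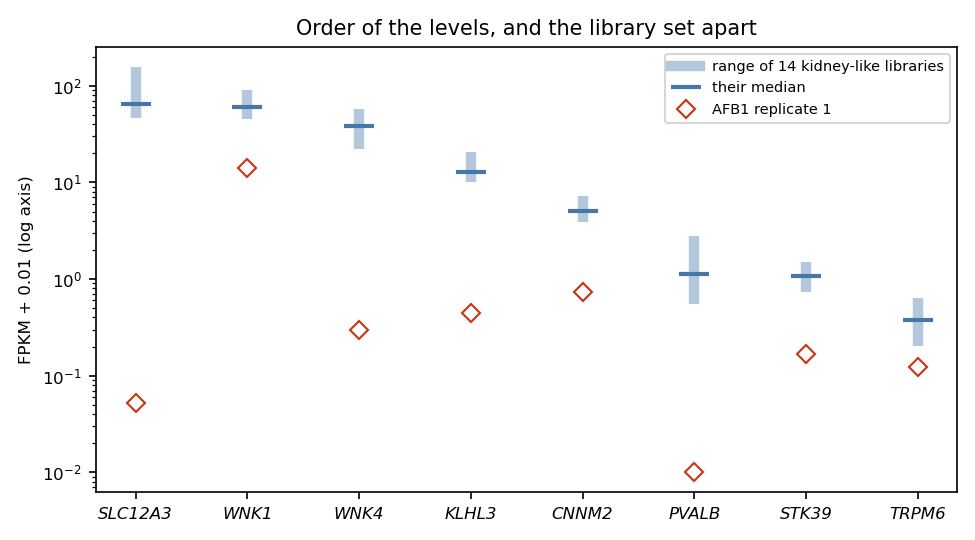
FPKM plus 0.01 on a log axis for the 8 genes in the order of their medians; the pale bar is the range and the dark line the median of the 14 libraries, and the open diamond is AFB1 replicate 1. The diamond of PVALB marks a value of 0, set by the added 0.01. The distance from diamond to dark line is widest for SLC12A3 and narrowest for TRPM6 and WNK1.

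The first comparison asked whether feeding AFB1 altered these genes. Compared with the CON group, 0 of the 7 members tested changed in the AFB1 group by thresholds taken from the study's screening (a fold change over 1.5 and p under 0.05), applied here to the unadjusted p of edgeR, whereas the study used DESeq2; they called 1.78% of all 13394 genes tested. The difference in SLC12A3 was 0.42 on the log2 scale (SE 0.326, 95% interval -0.28 to 1.12, edgeR quasi-likelihood test, adjusted p = 0.962). PVALB had the greatest difference, 0.72 (SE 0.440, 95% interval -0.22 to 1.67, adjusted p = 0.957 by edgeR). CNNM2 came nearest to the condition on p, with a difference of 0.27 (SE 0.149, 95% interval -0.06 to 0.58, adjusted p = 0.957 by edgeR); it met that condition, but not that on fold change, when only the compared groups were fitted (0.26, 95% interval 0.02 to 0.50). Without AFB1 replicate 4 the difference was 0.09 in SLC12A3 and 0.43 in PVALB, and over single libraries left out it ran up to 0.64 and 0.95. The log2 differences were 0.16 for KLHL3, 0.13 for WNK1, 0.06 for STK39 and -0.09 for WNK4, with 95% intervals that reached from -0.60 to 0.62 between them. These intervals leave room for changes of up to about 1.5-fold in the kinases and in KLHL3, and for more than that in SLC12A3 and PVALB.

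The second comparison asked whether curcumin altered them under AFB1. Compared with the AFB1 group, 0 of 7 members changed in the AFB1_CUR group by the same conditions, which called 0.993% of all genes. SLC12A3 differed by -0.63 on the log2 scale, a fold change of 0.644 (SE 0.326, 95% interval -1.33 to 0.07, adjusted p = 1 by edgeR). KLHL3 differed by -0.43, a fold change of 0.743 (SE 0.172, 95% interval -0.80 to -0.06, adjusted p = 1 by edgeR), which met the condition on p but not that on fold change. KLHL3 no longer met the condition on p without AFB1 replicate 4 (-0.25, 95% interval -0.59 to 0.09), without AFB1_CUR replicate 4 (-0.40) or 5 (-0.37), with all 15 libraries (-0.12) or in limma on log2(FPKM + 1) (-0.31) and log2(FPKM + 0.1) (-0.33). The other differences were -0.24 for CNNM2, -0.24 for WNK4, -0.23 for STK39, -0.17 for PVALB and -0.16 for WNK1, each with a 95% interval that included 0. That SLC12A3 was not called depended on single libraries. SLC12A3 met both conditions without AFB1 replicate 5 (-0.85), without AFB1 replicate 2 (-0.78) or without AFB1_CUR replicate 3 (-0.82). Its difference was -0.30 at the other end of the range over single libraries left out.

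All 7 tested members had a negative estimate in this second comparison, with a median of -0.24 against 0 over all genes, and 6 of 7 had a positive estimate in the first, with a median of 0.16 against 0.02 over all genes. Both comparisons used the same 4 AFB1 libraries, so the opposite signs share those samples, and the members also varied together between libraries, as given below. The signs did not hold without AFB1 replicate 4, where 3 of 7 were positive in the first comparison (median -0.02) and 5 of 7 negative in the second (median -0.10). Nor did they hold with all 15 libraries: 3 of 7 were positive in the first comparison (median -0.07) and 2 of 7 negative in the second (median 0.02), and SLC12A3 then differed by 0.10 (SE 0.892) and -0.31 (SE 0.893).

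The third comparison set AFB1_CUR against CON. Of the 7 tested members, 0 changed, against 1.75% of all genes. WNK4 had the most negative difference, -0.33 on the log2 scale (SE 0.223, 95% interval -0.81 to 0.15, adjusted p = 0.825 by edgeR), and PVALB the most positive, 0.55 (SE 0.418, 95% interval -0.35 to 1.45, adjusted p = 0.835 by edgeR). KLHL3 differed by -0.27, SLC12A3 by -0.21, STK39 by -0.17, WNK1 by -0.03 and CNNM2 by 0.02, and each 95% interval included 0. The median over the members was -0.17, against 0.00 over all genes.

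TRPM6 was fitted only without the filter on low values. Its log2 differences were 0.15 between AFB1 and CON (SE 0.327), -0.32 between AFB1_CUR and AFB1 (SE 0.327) and -0.17 between AFB1_CUR and CON (SE 0.309), all by edgeR with 95% intervals that included 0. With p values adjusted over all genes, 0% of the genes tested passed in each of the comparisons, although 670, 311 and 747 genes had an unadjusted p under 0.05 by edgeR and DESeq2 called 19, 3 and 2 genes after adjustment, none of them a member. Groups without overlap of any library were found in 0 members, against 1.53%, 0.679% and 0.732% of all genes in the 3 comparisons. With so few members and shares of calls of this size over all genes, 0 called members is a number near the background. Each library was taken as 1 sheep, as the study describes, and the p values set a group difference against the spread between these libraries. The study housed its sheep in shared pens, and pens were not part of the fit. In whole kidney pieces, fewer cells of a segment and less RNA per cell cannot be told apart.

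**Figure D3:**
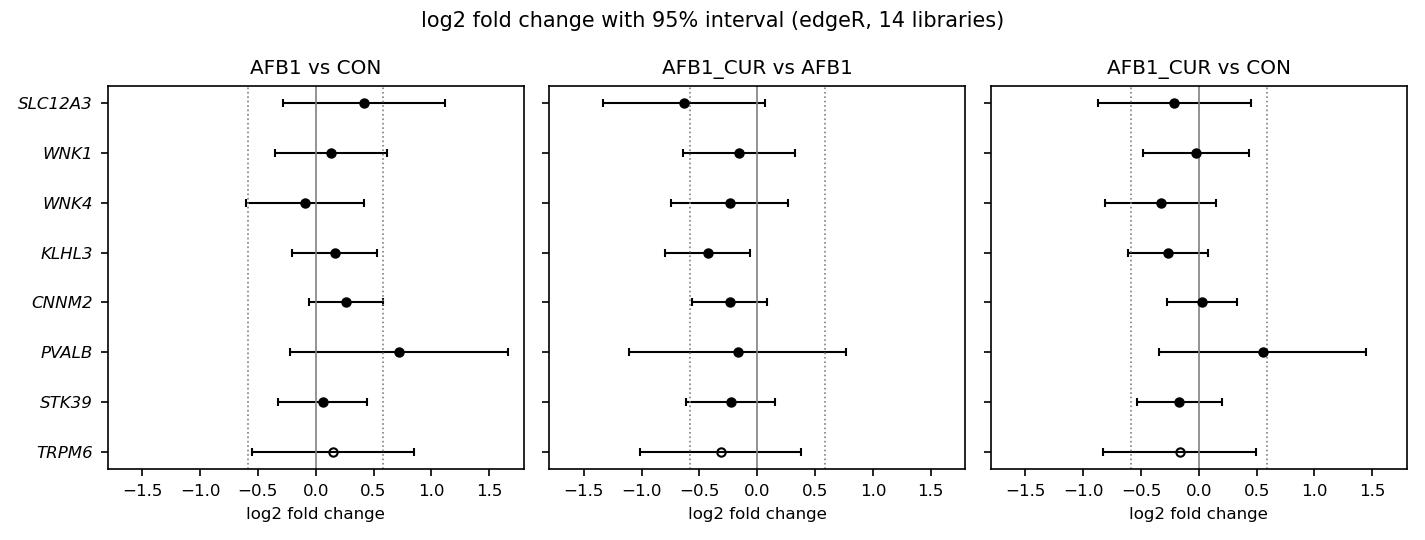
Estimated log2 fold change (points) with its 95% interval (whiskers) for the 8 genes in AFB1 vs CON, AFB1_CUR vs AFB1 and AFB1_CUR vs CON, from the edgeR fit of 14 libraries; the dotted lines mark a 1.5-fold change, and the open points of TRPM6 come from the fit without the filter on low values. The interval of KLHL3 in AFB1_CUR vs AFB1, -0.80 to -0.06, is the only interval drawn that lies on a single side of 0, and without AFB1 replicate 4 it was -0.59 to 0.09.

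Across the 14 libraries, SLC12A3, KLHL3, WNK4 and WNK1 varied together. Of 28 pairs among the 8 genes, 6 had a Benjamini-Hochberg adjusted p under 0.05 in a two-sided permutation test of Pearson's r of log2(FPKM + 1), and those were the 6 pairs among these 4 genes. The strongest was SLC12A3 with KLHL3 (r = 0.835, permutation p = 0.00026, adjusted p = 0.00728; Spearman's rho = 0.824, permutation p = 0.0005, adjusted p = 0.014). The other 5 pairs had r from 0.712 to 0.750, each with an adjusted p of 0.021, and rho from 0.622 to 0.732, with adjusted permutation p values of 0.0535 to 0.0913. With the group means removed, r was 0.736 to 0.818 for the 6 pairs. Without the 2 libraries farthest from the median of the first gene (AFB1 replicates 4 and 3 for SLC12A3, AFB1 replicate 4 and CON replicate 2 for KLHL3 and WNK1), r was 0.700 for SLC12A3 with KLHL3 (permutation p = 0.00852), 0.622 for SLC12A3 with WNK4 (permutation p = 0.0278) and 0.433 to 0.571 for the other 4 pairs (permutation p = 0.0502 to 0.158). For these last 4 pairs the relation did not hold without those libraries. After adjustment 0 of the 28 pairs passed then, with fewer libraries and the extremes of a gene taken out, which by itself narrows its range. Without AFB1 replicate 4 alone, r was 0.609 to 0.748 for the 6 pairs, and 0 passed after adjustment. Markers of other cell types moved with these genes in some libraries and not in others. AFB1 replicate 4 and CON replicate 2 had the lowest mean log2(FPKM + 1) of the proximal tubule markers in their groups (6.97 and 7.42, with 6.97 to 8.45 in AFB1 and 7.42 to 8.53 in CON) and the highest of the podocyte markers (4.86 and 4.67, with 3.76 to 4.86 and 4.18 to 4.67). The part of the sampled region in the correlations was not tested.

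For the other 4 genes, 0 pairs passed the test after adjustment. The strongest pair was CNNM2 with WNK1 (r = 0.534, permutation p = 0.0468, adjusted p = 0.187; rho = 0.591, permutation p = 0.0278, adjusted p = 0.111). STK39, the kinase between WNK and NCC, had r of 0.393 with SLC12A3, 0.485 with KLHL3, 0.297 with WNK4 and 0.091 with WNK1, and the lowest permutation p among these was 0.0791. PVALB had r of 0.452 and CNNM2 of 0.453 with SLC12A3 (permutation p = 0.104 for each), and TRPM6 had r of 0.314 (permutation p = 0.273). TRPM6 and PVALB had an r of -0.375 (permutation p = 0.189). For PVALB and TRPM6 counting error adds to the spread, as given above.

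**Figure D4:**
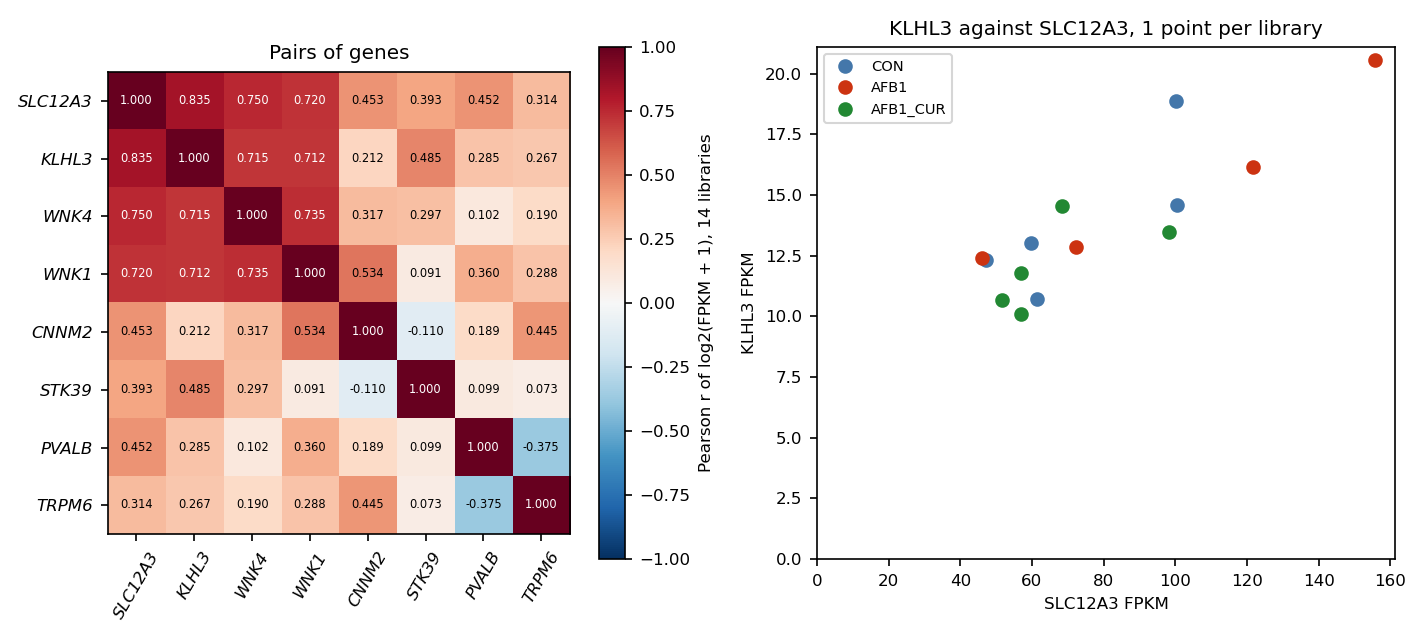
Left, Pearson's r of log2(FPKM + 1) over 14 libraries for each pair of the 8 genes on a colour scale from -1 to 1; right, FPKM of KLHL3 against FPKM of SLC12A3 with 1 point per library, coloured by group. The block of SLC12A3, KLHL3, WNK4 and WNK1 holds r from 0.712 to 0.835, and AFB1 replicate 4 is the point at the upper right (155.8 and 20.6 FPKM).

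The genes whose pattern over the 14 libraries was most like that of SLC12A3 were ranked by Pearson's r among the 13393 other tested genes, as a description without a test. SALL3, a zinc finger transcription factor gene, came first (r = 0.935, 2.48 to 8.43 FPKM). It was followed by TMEM213, a transmembrane protein gene (r = 0.883, 93.2 to 218.3 FPKM), BACE1, which encodes beta-secretase (r = 0.875, 2.78 to 5.51 FPKM), NR3C2, the mineralocorticoid receptor gene (r = 0.867, 3.75 to 7.17 FPKM), and DMRT2, a transcription factor gene (r = 0.861, 2.72 to 11.0 FPKM). In AFB1 replicate 1, SALL3, TMEM213 and DMRT2 were listed at 0 and NR3C2 at 0.161 FPKM, whereas BACE1 was at 4.08 FPKM, within the range of the other libraries. Of the members, KLHL3 ranked 12, WNK4 ranked 56 and WNK1 ranked 90, and CNNM2, PVALB and STK39 ranked 1275, 1280 and 1908.

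The neighbouring pathway genes were taken from lists of regulators and transporters. Of 18 further genes of the WNK and SPAK pathway, 15 were tested, and 0 were called in either direction in each comparison. Between AFB1 and CON their median log2 difference was 0.14, with 12 of 15 estimates positive, against 0.02 over all genes, and between AFB1_CUR and AFB1 it was -0.09, with 11 of 15 negative. Both comparisons share the 4 AFB1 libraries, and with all 15 libraries 9 of 15 were positive (median 0.03) and 8 of 15 negative (median -0.01). HSD11B2, the enzyme that protects the mineralocorticoid receptor from cortisol, had the highest mean level of the list, 263.6 ± 70.2 FPKM (SD, n = 14), and differed by 0.29 in AFB1 vs CON and by -0.31 in AFB1_CUR vs AFB1. KCNJ16, a potassium channel subunit of the basolateral membrane, had a mean of 73.6 ± 21.1 FPKM (SD, n = 14) and differed by 0.13 and -0.39. OXSR1 differed by 0.12 and 0.00 (SE 0.097 and 0.098), the narrowest estimates among the kinases named here.

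Of 19 further genes of magnesium handling, 16 were tested and 0 were called in either direction in each comparison, with medians of 0.08, 0 and 0.06. With all 15 libraries PTP4A1, a phosphatase gene whose product binds CNNM proteins, and SLC41A2, a magnesium transporter gene, were called higher in AFB1 than in CON (0.98 and 3.46) and lower in AFB1_CUR than in AFB1 (-0.65 and -2.96), and CLDN16, a tight junction gene of the thick ascending limb, was called higher in AFB1_CUR than in AFB1 (0.87). With all 15 libraries 4.84% of all genes were called in AFB1 vs CON and 3.98% in AFB1_CUR vs AFB1. With the 14 libraries these differences were 0.58 and -0.26 for PTP4A1, whose fold change of 1.5 between AFB1 and CON lay at the threshold, 0.83 and -0.33 for SLC41A2, and 0.71 for CLDN16. In AFB1 replicate 1, SLC41A2 was at 20.5 FPKM, against 0.333 to 2.17 in the 14 libraries. PTP4A1 was at 31.1 FPKM there, against 9.96 to 24.1, and CLDN16 at 0.343, against 0.784 to 3.81. FXYD2, the gamma subunit of the sodium pump, had a mean of 1009 ± 199.8 FPKM (SD, n = 14) and differed by 0.07 in AFB1 vs CON and by -0.31 in AFB1_CUR vs AFB1. PCBD1, an enzyme of tetrahydrobiopterin recycling, had a mean of 179.7 ± 38.4 FPKM (SD, n = 14) and differed by 0.20 and -0.26. EGF, a hormone that acts on TRPM6, was not analysed here.

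The list of late distal and connecting tubule calcium genes, which lie just downstream of the segment, held the called genes. Of its 10 genes 9 were tested, and 2 fell in AFB1_CUR compared with AFB1, while 0 rose there and 0 were called in the other comparisons. Over all genes 0.993% were called in AFB1_CUR vs AFB1, and 0% passed after adjustment. S100G, the calcium carrier calbindin-D9k, had FPKM values of 185.4, 382.5, 562.2 and 222.5 in AFB1 replicates 2 to 5 and 117.8, 193.7, 211.7, 214.6 and 206.9 in AFB1_CUR, with 123.4 to 276.8 in CON. AFB1 replicates 3, 4 and 5 lay above all AFB1_CUR libraries, and AFB1 replicate 2 lay among them. S100G fell by 0.92 on the log2 scale (SE 0.316, adjusted p = 1 by edgeR). KLK1, tissue kallikrein, a protease secreted by connecting tubule cells, had FPKM values of 249.0, 613.6, 637.6 and 332.7 in AFB1 replicates 2 to 5 and 236.0, 269.2, 208.3, 351.7 and 324.6 in AFB1_CUR. It fell by 0.79 (SE 0.279, adjusted p = 1 by edgeR), with AFB1 replicates 3 and 4 above all AFB1_CUR libraries and the other 2 among them. Both calls were lost without AFB1 replicate 4 (-0.54 for S100G and -0.57 for KLK1) and with all 15 libraries. S100G and KLK1 are also markers of the connecting tubule: the 4 measured markers, among them these genes, summed to 580 to 1431 FPKM in AFB1, 573 to 739 in AFB1_CUR and 478 to 818 in CON, and the part of the sampled segments in both calls was not tested. CALB1, calbindin-D28k, had a mean of 175.9 ± 50.3 FPKM (SD, n = 14) and differed by 0.48 between AFB1 and CON (SE 0.253, adjusted p = 0.957 by edgeR) and by -0.16 between AFB1_CUR and AFB1.

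Of the 8 other SLC12 cotransporters, 6 were tested and 0 were called in either direction in each comparison, with medians of -0.12, 0.05 and -0.04. SLC12A1, the furosemide-sensitive cotransporter NKCC2 of the thick ascending limb just upstream, had FPKM values of 87.9, 111.6, 55.0, 63.3 and 157.7 in CON, 236.1, 64.3, 56.0 and 53.3 in AFB1 replicates 2 to 5, and 114.3, 30.8, 49.4, 91.1 and 194.4 in AFB1_CUR. AFB1 replicate 4 held 155.8 FPKM of SLC12A3 and 56.0 of SLC12A1, AFB1_CUR replicate 5 held 57.0 and 194.4, and CON replicate 2 was high in both, with 100.2 and 111.6. The FPKM ratio of SLC12A1 to SLC12A3 ran from 0.360 to 3.41 with a median of 1.14, and was above 1 in 9 of 14 libraries. In counts the median ratio was 0.722, so which gene was higher depended on the lengths used. Count and FPKM together implied 5.58 kb for SLC12A1 and 8.79 kb for SLC12A3. SLC12A1 differed by 0.06 in AFB1 vs CON and by -0.09 in AFB1_CUR vs AFB1 (SE 0.543 for each). SLC12A4, the potassium chloride cotransporter KCC1, had a mean of 12.5 ± 2.30 FPKM (SD, n = 14) and differed by -0.08 and 0.15.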

How the data were processed

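RNA labelled as kidney from 15 sheep was sequenced as paired-end, strand-marked poly(A) libraries. Per the submitters' processing notes, the tools were cutadapt 1.9, HISAT2 2.2.1, StringTie 2.1.6, DESeq2 and edgeR; neither the counting tool nor the genome build was given in the sources used here. The authors deposited counts of reads together with FPKM values for 25592 genes, and both were used. Libraries were grouped by their titles, since the treatment field of the labels counts upward within a group.

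The 14 libraries without AFB1 replicate 1 were fitted together with edgeR 4.0.16 (R 4.3.3): counts, TMM normalization, quasi-likelihood test, and the 13394 genes that reached an FPKM of 1 in 4 or more libraries. Called genes had a fold change over 1.5 with p under 0.05 before adjustment. SE was the log2 fold change divided by the square root of F. Correlations used log2(FPKM + 1) and 100000 resamples (scipy 1.17.1), adjusted over 28 pairs. Alternatives were all 15 libraries, DESeq2 1.42.0, RLE size factors, no filter, limma 3.58.1 on log2(FPKM + 1) and log2(FPKM + 0.1), only the compared groups, a replicate block and leaving out each library. The fit was tested on simulated data. The total count of 50255295 to 68747047 per library sets counting error only.

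The members and the gene lists were chosen with earlier results of these data known. The text names each member, the called genes of each list, up to 2 others per list with the highest mean FPKM, and the 5 genes most like SLC12A3; OXSR1, TRPM7, WNK2, WNK3, PTP4A1, SLC41A2 and CLDN16 were added after their values were seen. SLC12A3, KLHL3, WNK4 and WNK1 are set apart in the correlations from the values themselves. TRPV5 and EGF were not analysed here. Sequences were not used here.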

Additional observations from a re-analysis of the deposited data

Results flagged for a closer look

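Each of the 8 genes was checked in each group of 4 or 5 libraries, with AFB1 also taken with replicate 1, for a library whose gap to its nearest neighbour was a large share of the range of its group (Dixon's 95% critical value). Of 32 such groups 2 were flagged, and chance flags about 1 in 20. TRPM6 was 0.588 FPKM in AFB1_CUR replicate 1, and the nearest of the other 4 libraries was at 0.322, so that the gap was 0.933 of the range. PVALB was 2.75 FPKM in AFB1_CUR replicate 3, with the nearest library at 1.19 and a gap of 0.861 of the range.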

How the results depend on the processing

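The 0 calls among the members held in every alternative except the AFB1_CUR vs AFB1 comparison with a library left out, where the count ran from 0 to 1 and SLC12A3 was the gene. Over all genes the counts of called genes were, in the order AFB1 vs CON, AFB1_CUR vs AFB1 and AFB1_CUR vs CON, 238, 133 and 235 in the 14-library fit, 639, 525 and 131 with all 15 libraries, 669, 543 and 149 with all 15 libraries and the same genes (added after seeing the data), 867, 707 and 928 without the filter, and 108, 86 and 82 with limma on log2(FPKM + 1). Leaving out a library gave 213 to 470, 133 to 288 and 131 to 335; the counts that moved by over 1.5 times were 470 and 234 without AFB1 replicate 5, 288 without AFB1 replicate 2, and 217 and 131 without AFB1_CUR replicate 2. The replicate block gave 239, 158 and 300 genes and 0 members; same-numbered libraries had a median correlation of 0.074 (-0.27 to 0.554, 5 of 13 pairs over 0.1), and 4 of 14 libraries correlated best with their own number, so the numbers were not taken to pair the sheep. Of 28 pairs of members, 6 passed in the main analysis, 26 with all 15 libraries, 0 without the 2 farthest libraries, 1 by Spearman's rho and 0 to 6 with a library left out (0 without AFB1 replicate 4, 2 without CON replicate 2); Spearman's rho and leaving out single libraries were added here after seeing the data. The r of STK39 with CNNM2 was -0.11 and turned to 0.766 with all 15 libraries, where AFB1 replicate 1 is lowest in both; the cause of the other moves was not tested. Of 385 log2 fold changes of members under the alternatives, 371 stayed uncalled by the 2 thresholds together, though p or fold change alone could cross its own, and either kept their sign or moved by under 1 SE; 11 changed sign by more than that, with all 15 libraries or, for KLHL3 in AFB1 vs CON, without AFB1 replicate 4 (-0.02), and the last 3 were the calls of SLC12A3 named above.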
